A study of Mus musculus with 6 samples.

Results

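The markers described here are 10 genes by which microglia, the resident macrophages of the retina, and other phagocytes are recognised. They were chosen by gene symbol, and 15 probe sets, each assigned to 1 of these genes alone, read them among 45037 probe sets. With 1 probe set kept per gene they are 10 of 18193 genes. Total RNA of BALBc mouse retinas (an albino strain) was measured on 6 Affymetrix arrays, of which 3 carry light damaged samples and 3 dark adapted ones. All mice spent 1 week in the dark. For light damage some were then placed under white fluorescent light of 6000 lux for 6 h, and their retinas were taken 24 h after the damage, while the dark adapted ones are the controls without this exposure. The comparison asks how the RNA of the retina differs after light damage. Ages and sexes are not given in the sources used here, nor is it said whether a sample is 1 animal or a pool, so the spread behind the p-values is that between samples and may be technical.

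Microglia sense ADP through P2ry12 and the neuronal chemokine fractalkine through Cx3cr1, and these genes and Tmem119 are typical of the resting state. Csf1r, the receptor for CSF1 and IL34, keeps them alive, and Aif1 (the actin-binding protein IBA1), Itgam (CD11b) and Ptprc (the phosphatase CD45) mark the lineage more widely. Trem2 is a receptor for lipids and cell debris that signals through the adaptor encoded by Tyrobp (DAP12), and Cd68 is a glycoprotein of phagocyte lysosomes. In injured nervous tissue microglia typically lower resting genes and raise phagocytic ones. In whole retina, fewer cells of a type and less RNA per cell cannot be told apart.

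Of the 10 markers, Cd68 alone passed the test. It rose 3.68-fold in light damaged retinas (log2 change 1.88 ± 0.22, SE). The other 9 did not pass, and their changes ran from a P2ry12 value of -0.48 to a Ptprc value of 0.47. Over all genes 1.74% were called higher and 0.269% lower (limma, Benjamini-Hochberg adjusted p under 0.05). An alternative fit took the replicate number of the arrays as a block. There P2ry12 (lower) and Ptprc (higher) passed as well, where 6.73% of all genes were called higher and 2.13% lower. The median change was 0.10 over the 10 markers and 0.03 over all genes. All values are log2 expression values made by the authors with RMA (robust multi-array average), where a difference of 1 is a doubling. The medians of the arrays lay between 6.15 and 6.18 and the lower quartiles between 4.98 and 5.11, which serve here as a gauge of dim probe sets. Values come without detection calls, so a value above this gauge does not show that a gene is expressed.

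**Figure D1:**
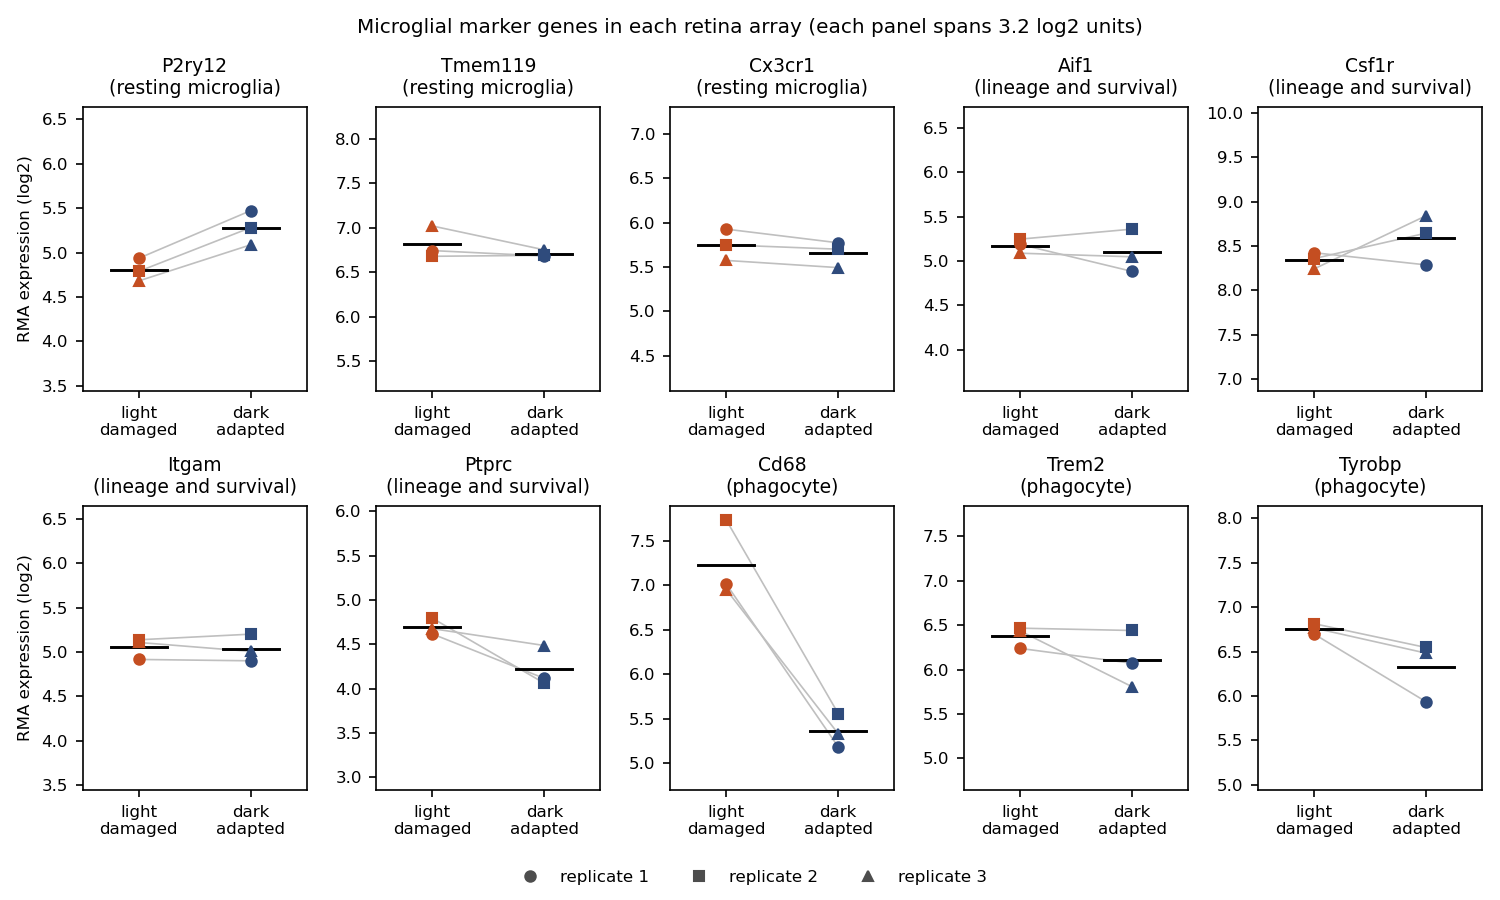
Log2 RMA expression of each marker's chosen probe set on the 3 light damaged (left, orange) and 3 dark adapted (right, blue) arrays. Symbols give the replicate number, grey lines join arrays of the same number and black bars are group means. Cd68 separates most, with light damaged values of 6.95 to 7.74 and dark adapted values of 5.18 to 5.56.

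Shown are the promoters of Cd68, the marker that rose, and of Trem2, a phagocyte marker that did not pass. That of P2ry12, the marker with the most negative change, is shown too. These promoters are examples, picked because they differ in how many copies they hold of letters bound by PU.1, a transcription factor of myeloid cells. They span 250 bases before to 50 after the annotated start, on the gene's own strand, and come from RefSeq, build GRCm38.p6. They lie at chr11:69666121-69666420 (minus strand) for Cd68, at chr17:48346151-48346450 (plus strand) for Trem2 and at chr3:59262936-59263235 (minus strand) for P2ry12. Capitals mark GAGGAA, the PU.1 core searched for, or its reverse complement TTCCTC.
Cd68: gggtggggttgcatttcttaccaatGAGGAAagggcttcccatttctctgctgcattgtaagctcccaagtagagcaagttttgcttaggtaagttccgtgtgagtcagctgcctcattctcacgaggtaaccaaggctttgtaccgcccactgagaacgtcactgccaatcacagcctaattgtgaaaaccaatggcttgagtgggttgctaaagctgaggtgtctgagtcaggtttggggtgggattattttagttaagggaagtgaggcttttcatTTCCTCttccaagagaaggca
Trem2: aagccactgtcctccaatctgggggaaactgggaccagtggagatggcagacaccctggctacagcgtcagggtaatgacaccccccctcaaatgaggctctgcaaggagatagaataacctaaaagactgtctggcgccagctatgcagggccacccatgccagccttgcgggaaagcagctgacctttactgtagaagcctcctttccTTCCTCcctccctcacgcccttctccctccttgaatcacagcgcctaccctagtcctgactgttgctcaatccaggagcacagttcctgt
P2ry12: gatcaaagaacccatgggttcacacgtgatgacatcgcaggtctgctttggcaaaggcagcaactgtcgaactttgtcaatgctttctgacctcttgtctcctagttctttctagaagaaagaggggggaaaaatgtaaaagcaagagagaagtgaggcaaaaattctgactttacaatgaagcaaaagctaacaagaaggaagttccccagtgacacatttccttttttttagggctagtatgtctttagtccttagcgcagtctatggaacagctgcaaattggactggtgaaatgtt

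The Cd68 window held 2 matches, the Trem2 window 1 and the P2ry12 window 0. The RefSeq table gave sequence used here for 7 of the 10 markers. Among the others, Itgam (log2 change 0.02) had 3 matches, Aif1 (0.08) 1, Cx3cr1 (0.09) 0, and Ptprc (0.47) 1 at 1 of its starts. Of all 32851 promoters of this length 28.3% held the letters GAGGAA on either strand. The longer GAGGAAG, which contains them, was present in Trem2 and Itgam and in 13.6% of all promoters. A match is a run of letters and no measured binding, and a window without a match may still be bound. Whether the matches bear on the changes was not tested.

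Among the phagocyte markers, Cd68 had values of 7.02, 7.74 and 6.95 in light damaged retinas, against 5.18, 5.56 and 5.33 in dark adapted retinas. Every light damaged value lay above every dark adapted one, and the smallest gap within a pair of the same replicate number was 1.62. The group means were 7.23 ± 0.44 in light damaged and 5.36 ± 0.19 in dark adapted retinas (SD, n = 3 each), and the limma adjusted p was 0.00474. The 95% interval of the change ran from 1.37 to 2.39. With any 1 array left out the change lay between 1.63 and 2.02 and the adjusted p was at most 0.0229. Among 18193 genes Cd68 stood at rank 95 by p.

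The adaptor Tyrobp had values of 6.70, 6.81 and 6.77 in light damaged retinas, against 5.94, 6.55 and 6.48 in dark adapted retinas. The groups did not overlap, but the test was not passed (0.44 ± 0.18, SE, limma adjusted p = 0.402). The low dark adapted replicate 1 weighs in this difference, which was 0.24 without that array. With the replicate number as a block, Tyrobp still missed the threshold (adjusted p = 0.0673).

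The receptor Trem2 had values of 6.24, 6.47 and 6.43 in light damaged retinas, against 6.07, 6.44 and 5.81 in dark adapted retinas. The groups overlapped and the change was 0.27 ± 0.18 (SE, limma adjusted p = 0.711). Its 95% interval of -0.14 to 0.68 excludes a change as large as the lower bound of Cd68.

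Among the resting markers, P2ry12 had values of 4.93, 4.79 and 4.68 in light damaged retinas, against 5.47, 5.28 and 5.09 in dark adapted retinas. All light damaged values were the lower ones, and the differences within same-numbered pairs were -0.54, -0.49 and -0.41. The change was -0.48 ± 0.15 (SE, limma adjusted p = 0.207), and with the replicate number as a block the adjusted p was 0.0199. P2ry12 is dim on these arrays, with 4 of its 6 values under the lower quartile of their array, and RMA compresses differences in that range.

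Tmem119, a transmembrane protein enriched in microglia, had values of 6.74, 6.68 and 7.02 in light damaged retinas, against 6.68, 6.69 and 6.75 in dark adapted retinas. The groups overlapped, and the 95% interval of its change of 0.11 ran from -0.21 to 0.42. The fractalkine receptor gene Cx3cr1 had values of 5.93, 5.75 and 5.58 in light damaged retinas, against 5.77, 5.70 and 5.49 in dark adapted retinas. These overlapped too, with a change of 0.09 and an interval of -0.24 to 0.43. For both genes a fall of the size seen in P2ry12 lies outside the interval, but the differences between the genes were not tested.

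**Figure D2:**
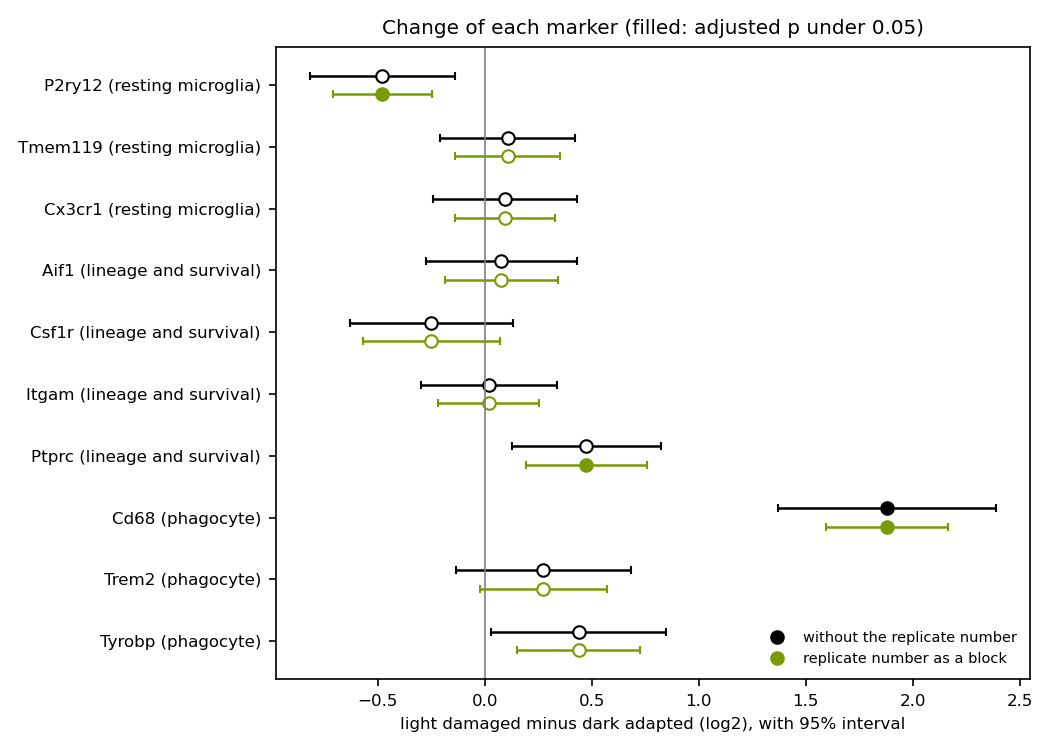
Change of each marker (horizontal axis, log2, light damaged minus dark adapted) with its 95% interval, from the fit without (black) and with (green) the replicate number as a block. Filled symbols have an adjusted p under 0.05. Cd68 is filled in both fits, and P2ry12 (-0.48) and Ptprc (0.47) are filled only with the block.

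Of the markers of lineage and survival, Ptprc had values of 4.62, 4.79 and 4.68 in light damaged retinas, against 4.12, 4.06 and 4.49 in dark adapted retinas. The groups did not overlap, with a change of 0.47 ± 0.15 (SE, limma adjusted p = 0.229, and 0.0477 with the replicate number as a block). All 6 values lay under the lower quartile of their array, so this is a difference within the dimmest range of the arrays.

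The survival receptor gene Csf1r, by its chosen probe set, had values of 8.42, 8.36 and 8.24 in light damaged retinas, against 8.29, 8.64 and 8.84 in dark adapted retinas. The groups overlapped and the change was -0.25 ± 0.17 (SE, limma adjusted p = 0.717). Aif1 had values of 5.19, 5.25 and 5.09 in light damaged retinas, against 4.88, 5.36 and 5.05 in dark adapted retinas. Itgam, the alpha chain of the complement receptor CR3, had values of 4.92, 5.14 and 5.11 in light damaged retinas, against 4.90, 5.20 and 5.01 in dark adapted retinas. Both overlapped between groups, with changes of 0.08 and 0.02, and both fell under the lower quartile on some arrays (2 arrays for Aif1 and 3 for Itgam).

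In counts, the light damaged values of 3 markers (Cd68, Tyrobp and Ptprc) were all higher than the dark adapted ones, those of P2ry12 were all lower and 6 markers overlapped. Over all genes 11.9% had light damaged values all higher and 3.75% all lower. With the replicate number as a block 3 markers passed, Cd68 and Ptprc higher and P2ry12 lower, where 6.73% of all genes were called higher and 2.13% lower. Of the 10 changes 8 were positive, and 3 (Cd68, Tyrobp and Ptprc) remained so when each array was centred on 8 reference genes, which moved the median of all genes to -0.28. That centring subtracts the mean rise of the reference genes, 0.31, and 1 of them, Rplp0, was itself called higher (2.30-fold). Under that centring P2ry12 passed as the lower one of 2 markers called (-0.79, limma adjusted p = 0.0373). Of all 18193 genes 120 were then called higher and 216 lower. Among probe sets P2ry12 did not pass under this centring (limma adjusted p = 0.0613).

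Resting and phagocyte markers were set against each other within each array, as the mean log2 value of P2ry12, Tmem119 and Cx3cr1 minus that of Cd68, Trem2 and Tyrobp. This difference was -0.78, -1.27 and -0.96 in light damaged retinas, against 0.25, -0.29 and -0.10 in dark adapted retinas. Every light damaged array lay below every dark adapted one, and the mean of -1.003 ± 0.245 in light damaged retinas differed from that of -0.046 ± 0.272 in dark adapted retinas (SD, n = 3 each) by -0.96. Most of this came from the phagocyte side, whose mean was 6.65, 7.01 and 6.72 in light damaged retinas and 5.73, 6.18 and 5.87 in dark adapted retinas. The mean of the resting markers was 5.87, 5.74 and 5.76 in light damaged retinas and 5.98, 5.89 and 5.78 in dark adapted retinas. Without Cd68 the difference between groups was -0.45 and the groups overlapped, with -0.600, -0.902 and -0.842 in light damaged retinas, against -0.027, -0.602 and -0.367 in dark adapted retinas. The measure is centred within each array, so no shift of a whole array can move it, and it is given as a description with no test.

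When each of the 15 probe sets was tested on its own, that of Cd68 passed (limma adjusted p = 0.0108) and 14 did not. Over all probe sets 0.913% were called higher and 0.104% lower. With the replicate block 2 of the 15 passed, those of Cd68 (limma adjusted p = 0.000801) and P2ry12 (0.0394), where 3.48% of all probe sets were called higher and 1.2% lower. Ptprc, which passed with the block among genes, did not pass among probe sets (limma adjusted p = 0.0948). The second probe set of Ptprc gave a change of 0.00, with 4.09, 5.05 and 3.95 in light damaged retinas, against 4.06, 4.98 and 4.05 in dark adapted retinas. The second probe set of Trem2 gave 0.18, with 5.41, 6.45 and 5.69 in light damaged retinas, against 5.38, 6.35 and 5.29 in dark adapted retinas. In both of these the arrays numbered 2 stood above the others in either group, by more than the groups differed. The further probe sets of Csf1r gave -0.03 and -0.04, and that of Cx3cr1 gave -0.01 with all 6 values under the lower quartile.

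**Figure D3:**
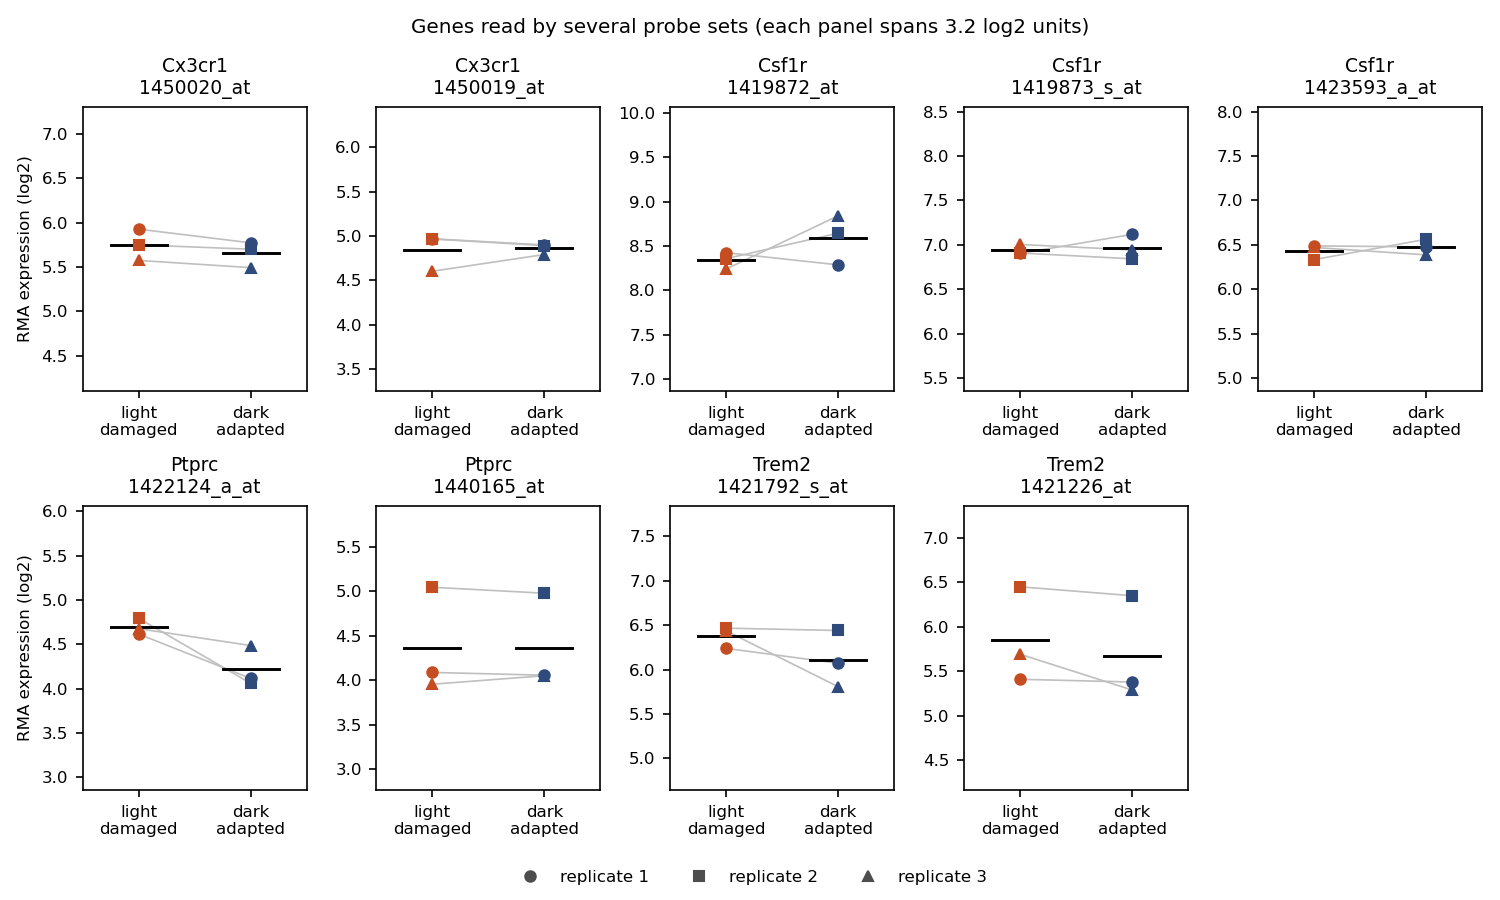
Log2 RMA expression of every probe set of Cx3cr1, Csf1r, Ptprc and Trem2, light damaged (left, orange) and dark adapted (right, blue), with group means as black bars and same-numbered arrays joined. The probe sets of Ptprc disagree (0.47 and 0.00), and replicate 2 is the highest array of both groups in the second probe sets of Ptprc and Trem2.

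Genes that act with these markers showed few calls. Of 11 genes of the CSF1 receptor pathway none passed, with a median change of 0.16. This list holds ligands, receptors of related cytokines, signalling adaptors and transcription factors of the lineage. With the replicate block 2 of its genes rose, Irf8 and the transcription factor gene Cebpa (0.79, limma adjusted p = 0.189 and 0.00307 with the block). Its member with the smallest p was Irf8, a transcription factor of microglia and macrophages, at 6.45 ± 0.16 in light damaged and 5.66 ± 0.38 in dark adapted retinas (SD, n = 3 each, limma adjusted p = 0.113, 0.0243 with the replicate block and 0.046 without dark adapted replicate 2). Irf8 also passed with the mean of its probe sets (limma adjusted p = 0.0393). A second probe set of Irf8 gave 0.65 without overlap of the groups. Among all probe sets its limma adjusted p was 0.0876, against 0.18 for the chosen one. Of 11 genes of TREM2 and TYROBP signalling none passed, the median change was 0.01, and Ptpn6, the phosphatase SHP-1, had the smallest p with a change of 0.14 (-0.17 when arrays were centred on reference genes). Of 10 ligands and integrin partners none passed and 4 did with the replicate block, with a median of 0.29. Its member with the smallest p was Anxa5 (annexin A5, a phosphatidylserine binding protein), at 0.68 ± 0.18 (SE, limma adjusted p = 0.121, and 0.03 with the block). None of these lists held a lower call in either fit. Over all genes 6.73% were called higher and 2.13% lower with the block, against 1.74% and 0.269% without it.

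Further genes of the resting state and of activated phagocytes differed in their counts. Of 16 other resting microglia genes Olfml3, a secreted matrix protein that microglia make but other cells make too, rose 2.32-fold (limma adjusted p = 0.0199), 15 did not pass, and the median was -0.07. This call was lost without light damaged replicate 2 (adjusted p = 0.0587), light damaged replicate 3 (0.0695) or dark adapted replicate 2 (0.0936), and after quantile normalization (0.0656) or centring on reference genes (0.146). Of 24 other genes of activated phagocytes 7 rose and 17 did not pass, the median was 0.58, and with the replicate block 16 rose. Over all genes 1.74% rose, and 6.73% with the block. After centring on reference genes 3 rose, and 3 of 20 did without probe sets that match several transcripts. Lgals3 (galectin 3) rose 8.83-fold, Axl, a receptor for the clearance of dying cells, 4.59-fold, and Lyz2, the lysozyme of myeloid cells, 2.47-fold, a call that centring on reference genes ended (adjusted p = 0.0868). A second probe set of Axl gave 0.08, but its values of 3.76 to 4.18 lay under the lower quartile of every array. The fold of Axl thus rests on 1 probe set. The other 4 that rose were Cyba, Ctsz, Ctsl and Lpl, with changes of 1.28, 1.11, 0.80 and 0.64, named after their values were seen. Cathepsins such as Ctsz and Ctsl are made by most cells, and the other 2 are not specific to microglia either. The arrays read whole retina, and which cells gave the rises of the 7 genes, Lgals3 and Axl included, was not tested. Apoe, a lipid carrier that Müller glia also make in quantity, had a change of -0.27 (limma adjusted p = 0.723).

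**Figure D4:**
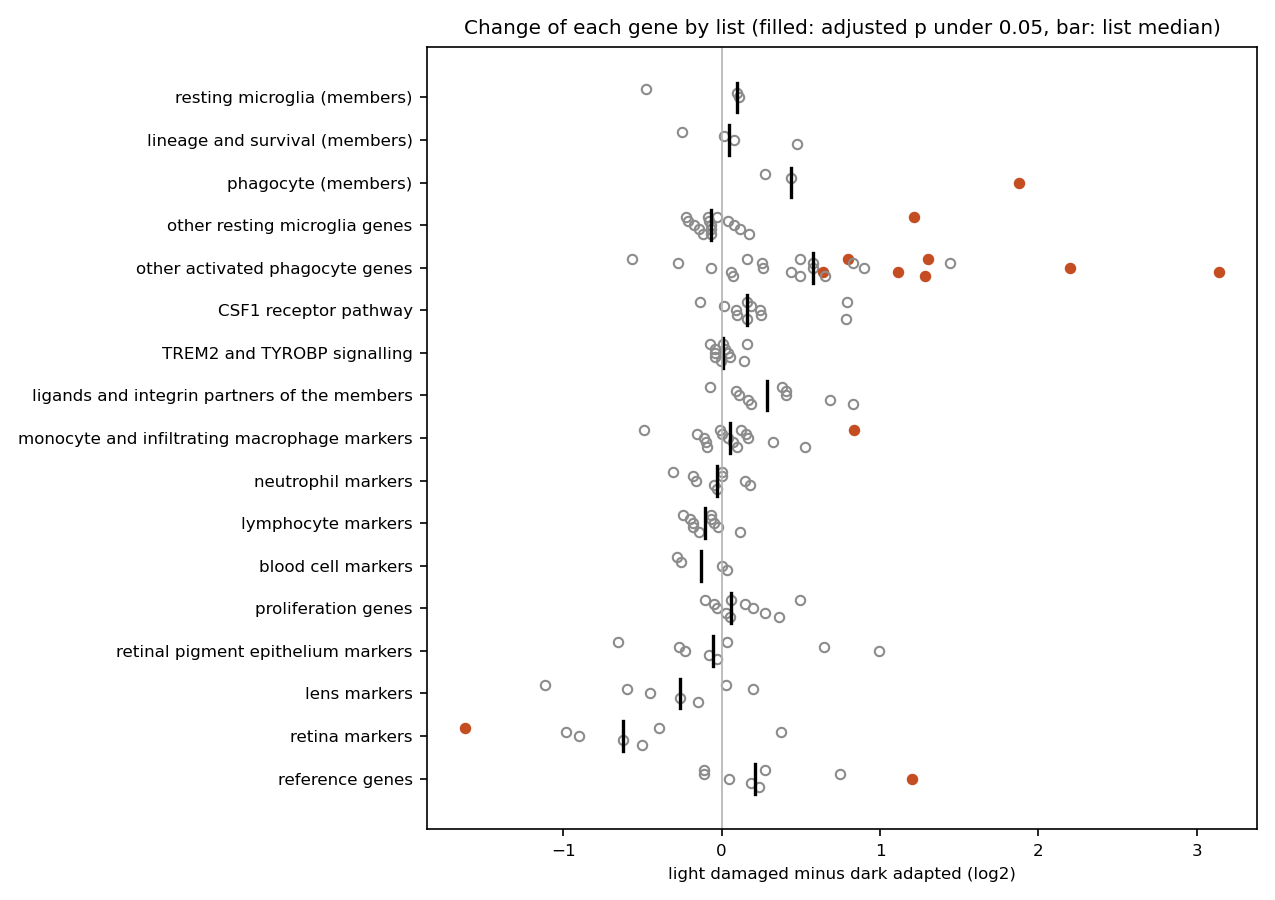
Change of every measured gene (horizontal axis, log2, light damaged minus dark adapted) in the 3 groups of markers and 14 other lists. Filled orange symbols have an adjusted p under 0.05 and black bars are list medians. The genes of activated phagocytes reach furthest to the right (median 0.58, up to 3.14 for Lgals3).

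Markers of other immune cells were read to see which cells the retinas could hold. Of 16 markers of monocytes and infiltrating macrophages 1 rose, the endotoxin co-receptor gene Cd14 (6.98 ± 0.12 in light damaged and 6.15 ± 0.04 in dark adapted retinas, SD, n = 3 each, limma adjusted p = 0.0142). This call was lost without light damaged replicate 2 (adjusted p = 0.0837), light damaged replicate 3 (0.0753) or dark adapted replicate 2 (0.0761), and after centring on reference genes (0.227). Ccr2, the chemokine receptor of blood monocytes, had a change of -0.49 with 9.76 on dark adapted replicate 3 and 7.92 to 8.61 on the other arrays, and 5 of the 16, among them Cd163 and Arg1, lay under the lower quartile on all arrays. The summed linear level of this list was 1594 to 1786 in light damaged and 1273 to 2214 in dark adapted retinas. Of 9 neutrophil markers none passed, with Mmp8 at -0.31, and sums of 582 to 718 in light damaged and 601 to 731 in dark adapted retinas. Of 10 lymphocyte markers none passed, with Cd3g at -0.25, and sums of 565 to 668 in light damaged and 592 to 752 in dark adapted retinas. For all 3 lists the sums of the groups overlapped. For monocytes and infiltrating macrophages the overlap rested on dark adapted replicate 3, the array with the high Ccr2 value, since the other dark adapted sums were 1273 and 1397. For neutrophils and lymphocytes the light damaged sum was the lower one in all 3 pairs of the same number. For neutrophils in number 3 the sums were nearly equal, at 718 in light damaged and 719 in dark adapted retinas.

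The remaining lists describe the retinas as a whole. The 7 measured retina markers had a median change of -0.62, and 6 of the 7 changes were negative. The cone opsin gene Opn1sw fell by 1.62 and 6 did not pass. With the replicate block 5 of the 7 passed as lower, where 2.13% of all genes did. After renewed quantile normalization or centring on reference genes 3 passed. Among the 5 that passed with the block was Glul, the glutamine synthetase of Müller glia, with a change of -0.99 (limma adjusted p = 0.0652, and 0.000775 with the block), named after its values were seen. The part of these lower retina values in the marker results was not tested. Of 11 proliferation genes none passed (Pcna at 0.50, limma adjusted p = 0.147, and 0.024 with the block). None of 4 blood cell markers (Epb42 at -0.28), 8 of the retinal pigment epithelium (Ttr at 0.99, limma adjusted p = 0.274 and 0.0471 with the block) or 7 of the lens (Bfsp1 at -1.12, limma adjusted p = 0.735 and 0.00028 with the block) passed without the block. With it 2 lens markers passed as lower, Bfsp1 and Cryba4 (-0.60, limma adjusted p = 0.0332 with the block). For Ttr the arrays numbered 3 hardly differed, at 8.57 in light damaged and 8.55 in dark adapted retinas. Its further probe sets also had positive changes, but some of them overlapped between groups. By replicate number, lens markers summed to 22325, 24264 and 47761 in light damaged and to 21415, 33630 and 51899 in dark adapted retinas. Arrays of both groups thus varied widely in them, and the sums rose with the replicate number in both groups. Of 8 reference genes Rplp0, a ribosomal protein gene, rose 2.30-fold, and the mean change of the 8 was 0.31. With the block Gusb, a lysosomal enzyme gene, passed too (0.74, limma adjusted p = 0.0643 and 0.00362 with the block).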

How the data were processed

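Total RNA of 6 retina samples was hybridised to Affymetrix mouse arrays. The authors' method was RMA, per the submitters' processing notes, without a stated version. The deposited values were taken as log2 from their range of 3.30 to 13.89 and were used unscaled. Of 45101 probe sets 64 are controls, 34945 have 1 gene in GEO's platform annotation, 932 several and 9160 none. Where several probe sets read a gene, the brightest by its mean was kept. Groups were compared with limma 3.58.1 (lmFit, eBayes) in R 4.3.3 over all 18193 genes, with Benjamini-Hochberg adjustment and a threshold of 0.05, and separately over all probe sets. The code was tested on simulated data.

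The titles number replicates 1 to 3 in both groups. Deviations from the group means correlated at 0.731, 0.618 and 0.432 within numbers, and at -0.48 to 0.00902 across them. Such deviations cancel within each group, so the low values across numbers are no separate evidence of pairing. All 3 values within numbers exceed 0.1, which meets the bar set for treating equal numbers as pairs, from the data and no label. The fit reported first has no block, and the fit with the replicate number as a block is an alternative, whose counts are given where they differ by over 1.5 times or change a call of a marker.

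The markers and lists were chosen with earlier results of these data known. Named from each other list were up to 3 genes past the threshold by size of change, otherwise the 1 with the smallest p. Of 171 genes in 14 other lists 150 were analysed here. Proteins were not analysed here.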

Additional observations from a re-analysis of the deposited data

How the results depend on the processing

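Cd68 stayed higher and past the threshold in all 13 alternatives to the gene fit (change 1.57 to 2.02), but among all probe sets its adjusted p was 0.0512 without light damaged replicate 3. The count of all genes called was 1613 with the replicate block and 151 to 417 with 1 array left out (212, 151 and 159 without light damaged replicates 1, 2 and 3, and 180 without dark adapted replicate 2), against 365, with 316 higher and 49 lower; the split was 325 and 161 after renewed quantile normalization and 120 and 216 after centring on reference genes, which subtracts their mean rise. Markers called numbered 3 with the replicate block, 2 after centring and 1 otherwise. Other listed genes called numbered 35 with the replicate block, 6 after centring and 7 to 11 with 1 array left out (7 without light damaged replicate 2 or 3), against 11. The difference of resting minus phagocyte markers was -0.45 without Cd68 and -0.76 without P2ry12, alternatives chosen after seeing the data, and between -1.08 and -0.73 in the others.

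Signs turned only for values that had not passed. After centring they were -0.20 for Tmem119, -0.21 for Cx3cr1, -0.23 for Aif1, -0.29 for Itgam, -0.033 for Trem2, -0.17 for Ptpn6, and -0.31 and -0.13 for the second probe sets of Ptprc and Trem2. With 1 array left out the changes ran from -0.029 to 0.209 for Aif1 and from -0.0501 to 0.0999 for Itgam. Those of the other probe sets ran from -0.076 to 0.107 for Cx3cr1 (0.016 after quantile normalization), from -0.092 to 0.046 and from -0.089 to 0.0039 for Csf1r, from -0.34 to 0.31 for Ptprc and from -0.12 to 0.52 for Trem2. Aif1 and P2ry12 are read only by probe sets that match several transcripts, and P2ry12, Ptprc and Itgam had no value where dim probe sets were left out. The number of arrays and the dimness of P2ry12, Ptprc, Aif1 and Itgam limit what these data can show.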

Other observations

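Immunoglobulin Fc receptor genes, by which phagocytes take up antibody-coated material, are among the genes of activated phagocytes and are described here after their values were seen. Fcer1g, the signalling chain shared by several of these receptors, had values of 6.13, 6.58 and 6.36 in light damaged retinas, against 5.54, 6.00 and 5.58 in dark adapted retinas. All light damaged values were the higher ones, with limma adjusted p = 0.147 and 0.0052 with the replicate block. Fcgr3, a low-affinity receptor that uses this chain, had values of 5.51, 5.83 and 5.40 in light damaged retinas, against 5.17, 5.23 and 4.86 in dark adapted retinas (limma adjusted p = 0.267, and 0.0218 with the block). The inhibitory receptor gene Fcgr2b (0.07) and the high-affinity receptor gene Fcgr1 (0.06) overlapped between groups, and neither passed in either fit.

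Gpnmb, a glycoprotein of phagocytes and pigment cells, had values of 7.63, 8.74 and 7.57 in light damaged retinas, against 6.75, 6.13 and 6.74 in dark adapted retinas (limma adjusted p = 0.0732, and 0.0149 with the block). Its highest value and its lowest were both on arrays numbered 2.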
